A study of Mus musculus with 16 samples.

Results

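Members of the CXC chemokine family, 9 genes in all, were followed in the skin of mice in which a transgene for TERT, the protein subunit of telomerase, was switched off. The genes were Cxcl1, Cxcl2, Cxcl3, Cxcl5, Cxcl9, Cxcl10, Cxcl12, Cxcl14 and Cxcl16, taken by gene symbol from a list of 9 out of the 18193 genes that the array named by a single symbol. They were read by 16 probe sets, and 8 of the 9 genes passed the filter on low values. All mice were iK5-TERT, K5-tTA; tetop-TERT double transgenic animals, in which the keratin-5 promoter limits the transactivator to the basal epidermis and the outer root sheath. Their drinking water held doxycycline (5 µg/ml), which keeps the transgene silent, until postnatal day 10 to 21. At day 60, with follicles in anagen per the methods, the TERT-off cohort was injected with doxycycline (8 µg per g body weight) and the TERT-on cohort with vehicle. Biopsies of 3 cm2 of dorsal skin were taken at 0, 6, 12 and 24 h, and the fat layer was removed. Each of the 8 groups held 2 arrays, 1 from each of the 2 mice of a cohort. The replicate number of the labels was taken as the mouse, since the methods describe serial biopsies. The 0 h biopsies of the TERT-off cohort carry the injected label, although they were obtained just before the injection.

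CXC chemokines are small secreted proteins that guide leukocytes along a gradient through G-protein-coupled receptors. Cxcl1, Cxcl2, Cxcl3 and Cxcl5 bind Cxcr2 and draw neutrophils, and keratinocytes, fibroblasts and macrophages make them when inflammatory cytokines activate NF-κB. Cxcl9 and Cxcl10 are induced by interferons and draw activated T cells through Cxcr3, whereas Cxcl12, the ligand of Cxcr4, and Cxcl14 are made by resting tissue, Cxcl14 abundantly by epidermis. Cxcl16 is a transmembrane chemokine that binds Cxcr6 and can be shed.

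Of the 9 genes, 6 lie on chromosome 5, where Cxcl5, Cxcl3, Cxcl1 and Cxcl2 share a cluster with Ppbp and Pf4, and Cxcl9 and Cxcl10 are neighbours. RefSeq promoter windows (build GRCm38.p6) were matched to 7 of the 9 genes, without Cxcl5 and Cxcl16. The 250 bases before the start site were searched on both strands for the letters GGAATTTCC, the core of an NF-κB site, which were chosen after these windows had been read. They occurred once each before Cxcl1, Cxcl2, Cxcl3 and Cxcl10, and not before Cxcl9, Cxcl12 or Cxcl14. Of all 32851 windows, 94 (0.286%) held them. The match began 70 bases before the start of Cxcl1, 96 before that of Cxcl2 and 72 before that of Cxcl3. Of these 3 neutrophil attractants, Cxcl1 alone passed in a comparison over all mice below. The 150 bases before the 3 start sites are shown, with the matching letters in capitals. They lie on the plus strand at chr5:90891095-90891244 for Cxcl1, chr5:90903749-90903898 for Cxcl2 and chr5:90785951-90786100 for Cxcl3.
Cxcl1: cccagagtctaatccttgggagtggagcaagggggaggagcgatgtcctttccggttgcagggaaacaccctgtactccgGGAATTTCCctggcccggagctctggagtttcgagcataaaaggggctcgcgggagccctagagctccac
Cxcl2: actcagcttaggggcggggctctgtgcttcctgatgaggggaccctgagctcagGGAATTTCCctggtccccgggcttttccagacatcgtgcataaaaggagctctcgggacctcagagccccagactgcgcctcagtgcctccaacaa
Cxcl3: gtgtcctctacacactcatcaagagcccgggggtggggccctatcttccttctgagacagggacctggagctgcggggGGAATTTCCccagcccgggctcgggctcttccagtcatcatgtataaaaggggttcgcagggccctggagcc
A match of letters is a description of the sequence and does not show that a factor bound there. The letters TTCNNNGAA, those of a gamma-interferon activated site, were found before 1 of the 7 genes, Cxcl14, and before 7.02% of all windows. TATAAA was found before Cxcl3, 30 bases from its start, and before Cxcl9, and in 12.4% of all windows.

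Tert, the targeted gene, read 185 to 357 on the 4 arrays of 0 h. At 6 to 24 h it read 22.6 to 64.6 in TERT-on skin and 8.32 to 16.1 in TERT-off skin, and these ranges did not overlap. The array of TERT-on mouse 1 at 0 h had a 5′ to 3′ Gapdh ratio of 0.0599, against 0.977 to 1.12 on the other 15 arrays, so that each change from 0 h in the TERT-on cohort is also given without it where it passed. Over 6 to 24 h, 29.5% of all tested genes passed between the cohorts in either direction. Beside that share, 5 of 6 tested neutrophil markers, 14 of 14 macrophage and monocyte markers, 3 of 6 T cell, 6 of 7 mast cell, 8 of 10 dermal fibroblast, 7 of 10 endothelial, 3 of 8 skeletal muscle and 3 of 5 adipocyte markers were higher in TERT-off skin by limma, as were 1 of 8 dendritic and Langerhans cell and 1 of 7 basal keratinocyte markers. Csf3r, Mmp8 and Ccr7 are not counted here, since they passed the filter on low values through the TERT-off 24 h arrays. All 11 tested hair shaft markers were lower. The sum of 8 hair shaft markers was 542 in TERT-off mouse 1 at 0 h, against 27663, 15476 and 29718 on the other 0 h arrays, so that this mouse stood apart before the injection. In TERT-off mouse 2 the sum was 24905 at 6 h and 2142 at 12 h. In whole biopsies, fewer cells of a type and less RNA per cell cannot be told apart.

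Cxcl1, a leading neutrophil attractant of mouse skin, was low in both cohorts at 0 h, was higher at 6 h in TERT-on skin, and reached its highest values in TERT-off skin at 24 h. In TERT-on mouse 1 its intensity was 18.3, 184, 61.5 and 24.2 at 0, 6, 12 and 24 h, and in TERT-on mouse 2 it was 16.7, 50.1, 35.5 and 20.6. In TERT-off mouse 1 it was 41.0, 55.3, 93.2 and 352, and in TERT-off mouse 2 it was 23.2, 20.9, 73.9 and 581. The TERT-off 24 h group thus stood above every other array, whereas TERT-on 6 h and TERT-off 12 h, next in order, overlapped. At 24 h the difference between TERT-off and TERT-on was 4.34 ± 0.57 on the log2 scale (SE, n = 2 and 2 mice), a 20.3-fold higher level (limma, adjusted p = 0.00785). Within the TERT-off cohort the 24 h level was 3.87 ± 0.55 above that at 0 h, or 14.7-fold (adjusted p = 0.0112). Cxcl1 was the 1 member of 5 tested that passed in each of these comparisons, where 2.41% and 0.613% of all tested genes passed. At 6 h the direction was the opposite, with TERT-off lower by a log2 difference of -1.50 ± 0.57 (adjusted p = 0.167). The difference between cohorts changed by 5.84 ± 0.78 from 6 h to 24 h (limma, interaction of cohort and time, adjusted p = 0.0172), a comparison that 0.207% of genes passed and that was added after the values were seen. Averaged over 6 to 24 h, Cxcl1 was higher in TERT-off skin by 1.22 ± 0.36 (adjusted p = 0.0268), and was again the 1 of 5 tested members that passed, where 29.5% of genes did. That average depended on single mice. It was 1.71 (adjusted p = 0.0533) without TERT-on mouse 1, 0.74 (adjusted p = 0.288) without TERT-on mouse 2 and 1.05 (adjusted p = 0.0903) without TERT-off mouse 1. The 24 h difference passed without TERT-off mouse 1 or 2, but was 4.46 (adjusted p = 0.0798) and 4.22 (adjusted p = 0.127) without TERT-on mouse 1 and 2, the rise from 0 h was 4.65 (adjusted p = 0.0731) and 3.10 (adjusted p = 0.197) without TERT-off mouse 1 and 2, and the interaction, 4.78 to 6.90, failed without any 1 of the 4 mice (adjusted p = 0.0822 to 0.669).

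A second probe set of Cxcl1 followed the first (Pearson r = 0.98 of log2 values over 16 arrays). It read 27.2 and 37.3 in TERT-on skin at 24 h against 279 and 378 in TERT-off skin, a difference of 3.35 ± 0.46 (limma, adjusted p = 0.00826). The third read 3.60 to 144 on 14 arrays (r = 0.97 with the first) and had empty cells on both TERT-off 24 h arrays. The names of the first pair end in _s_at and _x_at, which mark probe sets whose probes can match more than 1 transcript.

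**Figure D1:**
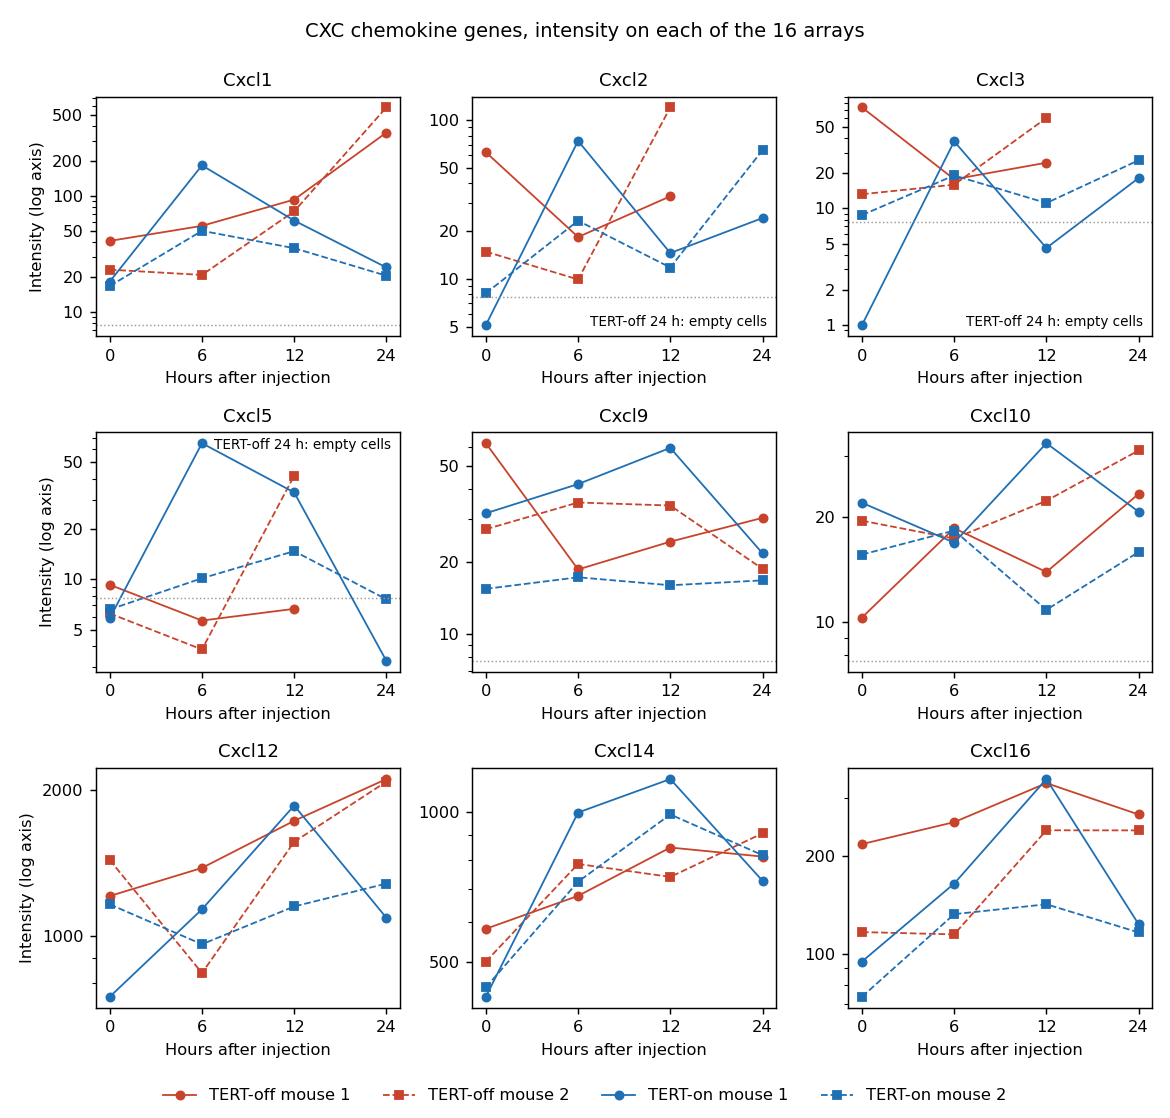
Intensity of each of the 9 genes (y axis, log scale, own range for each gene) against the hours after injection (x axis, evenly spaced), with 1 line for each mouse. Dotted lines mark the floor of 7.71, drawn where values come near it. Cxcl1 ends at 352 and 581 in TERT-off skin, and Cxcl2, Cxcl3 and Cxcl5 have no TERT-off value at 24 h.

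Cxcl2, Cxcl3 and Cxcl5, the other neutrophil attractants, had empty cells on both TERT-off 24 h arrays, so that no comparison that uses that group could be fitted for them. The table held 45037 probe sets other than controls. Of these, 22 (0.0488%) were empty on both TERT-off 24 h arrays, and 4 of the 22 belonged to the 4 neutrophil attractants. In the other 7 groups, 1 to 7 probe sets were empty on both arrays. Among the rest of the 22 were probe sets of Nlrp3, Trem1, Saa3 and Plaur, named after their entries had been seen. The remaining ones were of Ankrd1, Hspb7, Col5a3, Prg4, Ptgis, Dpysl4, Ccdc184, Fam163a and Lgals2, or had no single gene symbol. Why a cell was left empty is not given in the sources used here, and no value was put in its place.

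Cxcl2 read 5.11, 74.0, 14.5 and 24.2 in TERT-on mouse 1 at 0, 6, 12 and 24 h, and 8.11, 23.2, 11.8 and 64.7 in TERT-on mouse 2. At 0, 6 and 12 h it read 62.8, 18.3 and 33.1 in TERT-off mouse 1 and 14.8, 9.91 and 120.3 in TERT-off mouse 2. Both TERT-off mice were below both TERT-on mice at 6 h and above them at 12 h. The log2 difference was -1.62 ± 0.85 at 6 h (limma, adjusted p = 0.291) and 2.27 ± 0.85 at 12 h (adjusted p = 0.125), neither of which passed.

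Cxcl3 read 1.00, 37.5, 4.58 and 18.2 in TERT-on mouse 1 and 8.76, 19.2, 11.1 and 25.8 in TERT-on mouse 2. In TERT-off skin it read 73.3, 17.8 and 24.6 at 0, 6 and 12 h in mouse 1 and 13.2, 15.96 and 59.5 in mouse 2. Its order at 6 and 12 h was that of Cxcl2, and the log2 values of both genes correlated with r = 0.91 over the 14 arrays they share. At 12 h Cxcl3 was higher in TERT-off skin by 2.05 ± 0.73 (limma, adjusted p = 0.111), which did not pass. It passed without TERT-off mouse 1 (2.68, adjusted p = 0.0450), as did the difference at 0 h of 1.92 ± 0.73 (adjusted p = 0.568) without TERT-off mouse 2 (3.16, adjusted p = 0.0436). Without TERT-off mouse 1 the 0 h difference was 0.69 (adjusted p = 0.832), and without TERT-off mouse 2 that at 12 h was 1.41 (adjusted p = 0.154). With the floor at the lowest value of the table or at 16, the 0 h difference was 3.40 or 1.10. TERT-off mouse 1 at 0 h had the highest Cxcl3 value and the fourth highest Cxcl2 value of the arrays with a reading.

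Cxcl5 stayed near the floor on most arrays. It read 5.87, 65.2, 33.1 and 3.26 in TERT-on mouse 1 and 6.61, 10.15, 14.8 and 7.60 in TERT-on mouse 2, against 9.29, 5.68 and 6.67 in TERT-off mouse 1 and 6.26, 3.81 and 41.7 in TERT-off mouse 2. The fitted log2 difference was -1.74 ± 0.89 at 6 h and -0.30 ± 0.89 at 12 h. Cxcl5 passed the filter on low values through 1 TERT-on 6 h array and 1 TERT-off 12 h array. Each comparison uses 1 of these groups, so no test of it is given. It stays in the counts of 8 tested members, in which it did not pass. At 6 h both TERT-off values were under the floor of 7.71 and were raised to it.

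The 4 neutrophil attractants moved alike in 1 respect, which other members shared. At 6 h, each gene was above its own 0 h level in each TERT-on mouse, 8 of 8 pairs of gene and mouse, by 1.32 to 10.0 times with values under the floor raised to it. In TERT-on mouse 1 this rests on the 0 h array of low Gapdh ratio. In TERT-on mouse 2 the ratios were 2.99 for Cxcl1, 2.87 for Cxcl2, 2.19 for Cxcl3 and 1.32 for Cxcl5. The pairs share mice and arrays and are not replicates. At 0 h, Cxcl5 in both TERT-on mice and Cxcl2 and Cxcl3 in TERT-on mouse 1 were under the floor. Those pairs could therefore not fall. The share of all genes with such a rise was not counted, so nothing is concluded from the 8 of 8. In TERT-off skin 2 of 8 pairs were above 0 h at 6 h and 5 below. By 12 h, 5 of 8 TERT-off pairs were above 0 h and 3 below, with a median log2 change of 1.43, and 7 of 8 TERT-on pairs were above it. In TERT-on skin the fitted change from 0 to 6 h passed for none of them. It was 2.46 ± 0.55 for Cxcl1 (limma, adjusted p = 0.215), 2.39 ± 0.82 for Cxcl2 (adjusted p = 0.260) and 1.71 ± 0.70 for Cxcl3 (adjusted p = 0.305). For Cxcl5 it was 1.74 ± 0.86, a change into a group through which it passed the filter. Of all genes 0.0238% passed that comparison. All 8 tested members had a fitted rise in it, with a median of 1.34, beside -0.06 over all genes. On their brightest probe sets, Cxcl14 rose 2.35 and 1.63 times in TERT-on mice 1 and 2, and Cxcl16 1.74 and 1.79 times. The second Cxcl14 probe set gave 0.98 and 1.29 times. From 6 to 12 h the difference between cohorts moved upward, by 2.33 ± 0.78 for Cxcl1, 3.89 ± 1.16 for Cxcl2 and 2.72 ± 0.99 for Cxcl3. These 3 were the members of 8 tested with an unadjusted p under 0.05 in limma, where 3.21% of all genes had one. None passed after adjustment (adjusted p = 1.00, with 0% of genes passing). The comparison was not among those planned, and Cxcl2 and Cxcl3 varied together (r = 0.91), so nothing is concluded from that count.

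**Figure D2:**
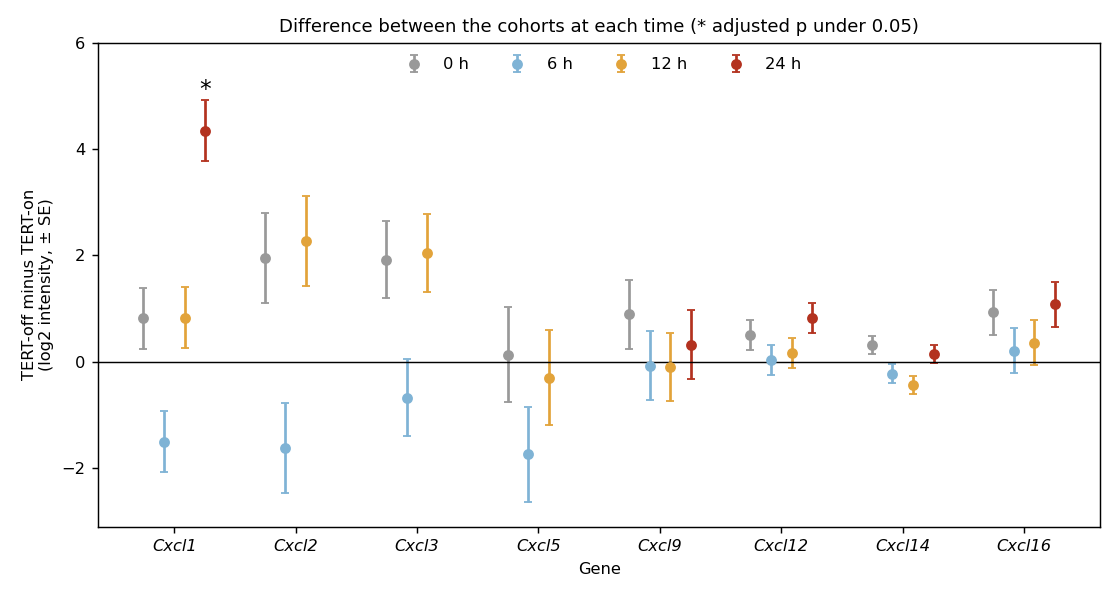
Log2 difference in intensity, TERT-off minus TERT-on (y axis), for the 8 tested genes (x axis) at 0, 6, 12 and 24 h, with bars of ± 1 SE from the limma fit and an asterisk where the adjusted p is under 0.05. The asterisk stands on Cxcl1 at 24 h alone, and Cxcl2, Cxcl3 and Cxcl5 have no point at 24 h.

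At 0 h, 6 h and 12 h no member of 8 tested passed in limma, where 0.0397%, 1.73% and 2.54% of all genes did. Unadjusted p was under 0.05 for 3 members at 0 h (Cxcl2, Cxcl3 and Cxcl16, all higher in TERT-off), 1 at 6 h (Cxcl1, lower) and 3 at 12 h (Cxcl2 and Cxcl3 higher, Cxcl14 lower). Of all genes 7.95%, 23.5% and 30.0% had one at 0, 6 and 12 h. Over 6 and 12 h together, a comparison added because of the empty cells at 24 h, no member of 8 passed on its brightest probe set. Of all genes 22.6% did. On these probe sets Cxcl14 alone had an unadjusted p under 0.05, against 40.5% of all genes. The second Cxcl12 probe set, given below, did pass. The median difference of the 8 was 0.01, beside 0.05 over all genes.

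The receptors and the remaining CXC ligands were read beside these genes. Cxcr2, the receptor of the neutrophil attractants, read 1.00 to 20.5 on the 8 TERT-on arrays and 4.52 to 15.5 on the TERT-off arrays of 0 to 12 h. At 24 h it read 88.2 and 114 in TERT-off skin. It passed the filter on low values through those arrays alone, so no test of it is given. Of the 5 other tested receptor genes, 4 were higher in TERT-off skin over 6 to 24 h and none lower, with a median of 0.78, where 29.5% of all genes passed. These were the scavenging receptors Ackr1 (1.02 ± 0.18) and Ackr3 (0.82 ± 0.22), Cxcr6, which binds Cxcl16 (0.78 ± 0.14), and Cxcr3, which binds Cxcl9 and Cxcl10 (0.70 ± 0.19). Cxcr4 differed by 0.21 ± 0.13 (adjusted p = 0.269). Cxcr5 was listed at 4.51 to 12.4 and did not pass the filter.

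Of the 6 other CXC ligands, Pf4 and Cxcl13 were tested and were higher in TERT-off skin over 6 to 24 h. In that comparison 29.5% of all genes passed. Ppbp, a platelet-derived ligand of Cxcr2, read 277 and 105 at 24 h in TERT-off skin against 6.27 and 8.90 in TERT-on skin. It passed the filter through the TERT-off 24 h arrays and 1 other, and no test of it is given. Pf4, the other platelet chemokine of the cluster, was higher by 1.76 ± 0.33 over 6 to 24 h (limma, adjusted p = 0.00557), with TERT-off mouse 1 already at 889 at 0 h. Cxcl13, which draws B cells, was higher by 2.63 ± 0.15 (adjusted p = 3.86e-05), with 1 empty cell in TERT-off mouse 2 at 12 h. Cxcl11, Cxcl15 and Cxcl17 read 13.8 to 30.3, 2.14 to 10.2 and 15.2 to 25.9 and were not tested.

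Among cytokines that induce neutrophil attractants, Il1b read 532 and 409 in TERT-off skin at 24 h against 55.2 and 60.3 in TERT-on skin, a difference of 3.01 ± 0.30 (limma, adjusted p = 0.00161). Il1a was higher over 6 to 24 h by 0.72 ± 0.21 (limma, adjusted p = 0.0295). Of all genes, 2.41% passed at 24 h and 29.5% over 6 to 24 h. Il6 read 102 and 118 at 24 h in TERT-off skin against 5.55 and 5.18 in TERT-on skin. At 6 h Il6 read 52.2 and 12.5 in TERT-on skin and 4.94 and 6.54 in TERT-off skin. Csf3 read 41.3 and 47.8 at 24 h in TERT-off skin against 22.1 and 22.6 in TERT-on skin. Il6 and Csf3, named after their values had been seen, passed the filter through the TERT-off 24 h arrays, with 1 other for Il6, and no test of them is given. Tnf and Il17a were under the filter. Of 11 tested NF-κB subunits and early targets, 7 were higher and 1 lower over 6 to 24 h (median 0.48), where 29.5% of all genes passed, led by Birc3 (1.15 ± 0.22), Nfkbiz (0.85 ± 0.20), Nfkbie (0.83 ± 0.28) and Relb (0.70 ± 0.17). For comparison, the median difference of all tested genes was 0.04.

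The summed intensity of 10 neutrophil markers without empty cells was 531 to 686 in TERT-on skin at 0 h and 659 to 1312 at 6 to 24 h. In TERT-off skin it was 2473 to 2594 at 0 h, 1893 to 6985 at 6 to 24 h and 6969 to 6985 at 24 h. Such a sum weighs bright genes most. Over the 8 tested markers, Csf3r and Mmp8 among them, the median log2 difference at 0 h was 0.60. Of these, 1 passed in limma at 0 h, where 0.0397% of all genes did. The summed levels of the cohorts did not overlap at 0 h. Neither did the 0 h values of Cxcl1, 41.0 and 23.2 in TERT-off and 18.3 and 16.7 in TERT-on skin, a difference of 0.82 ± 0.57 that did not pass (limma, adjusted p = 0.719). S100a9, a calcium-binding protein listed here as a neutrophil marker, was higher by 5.06 ± 0.53 at 24 h (limma, adjusted p = 0.00243). Of all genes 2.41% passed at 24 h. The values do not show which cells made S100a9. Of the 12 markers on the array, Camp, Ltf and Mpo stayed under the table median on all 16 arrays. The part of these cells in the chemokine values was not tested.

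**Figure D3:**
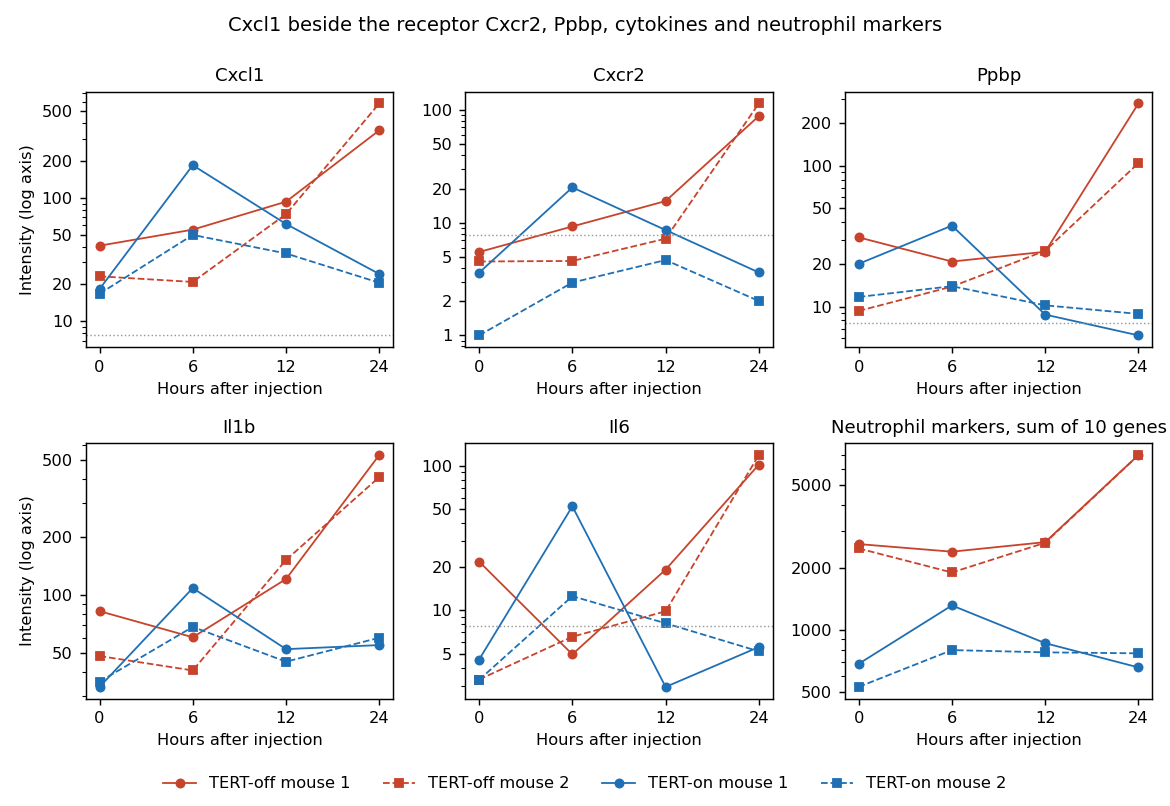
Intensity (y axes, log scale) of Cxcl1, Cxcr2, Ppbp, Il1b and Il6 and the summed intensity of 10 neutrophil markers, against the hours after injection (x axes, evenly spaced), 1 line for each mouse. At 24 h both TERT-off mice lie above both TERT-on mice in Cxcl1, Il1b and the neutrophil sum, which already differs at 0 h. Cxcr2, Ppbp and Il6 passed the filter on low values mainly through the TERT-off 24 h arrays, so nothing is concluded from their position there.

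For the interferon-induced pair, Cxcl9 did not pass in any comparison and Cxcl10 was not tested. Cxcl9 read 15.4 and 31.8 in TERT-on skin at 0 h and 27.3 and 62.2 in TERT-off skin. At 6 to 24 h it read 15.9 to 59.5 in TERT-on skin (median 19.4) and 18.5 to 35.2 in TERT-off skin (median 27.3), so the cohorts overlapped throughout. Over 6 to 24 h the difference was 0.05 ± 0.40 (limma, adjusted p = 0.938). Its sign turned under 4 of 15 alternatives, so no direction is given. A second probe set of Cxcl9 (9.61 to 22.6) and the single probe set of Cxcl10 (10.3 to 32.7) were under the table median of 34.4 on all 16 arrays and were not tested. Of 12 tested genes of the interferon-gamma response, 9 were higher over 6 to 24 h (median 0.82), beside 29.5% of all genes, among them the transcription factor Irf8 (1.19 ± 0.26) and the GTPases Gbp3 (1.06 ± 0.33), Irgm1 (1.03 ± 0.24) and Igtp (0.88 ± 0.21). Of 10 tested type I interferon response genes, 5 were higher (median 1.00), led by Ifit1 (2.03 ± 0.62), Oas1a (1.67 ± 0.41), Oasl2 (1.44 ± 0.42) and Rtp4 (1.20 ± 0.33), which act in antiviral defence. No gene of these lists passed in the other direction.

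Cxcl12 and Cxcl14, the homeostatic chemokines, were read at high intensity on all 16 arrays, and their probe sets differed from each other. On its brightest probe set Cxcl12 read 748, 1133, 1854 and 1088 in TERT-on mouse 1 and 1160, 960, 1148 and 1280 in TERT-on mouse 2. It read 1207, 1379, 1725 and 2103 in TERT-off mouse 1 and 1432, 837, 1561 and 2078 in TERT-off mouse 2. The 2 TERT-off 24 h values were the highest of all, but the difference at 24 h of 0.82 ± 0.28 did not pass (limma, adjusted p = 0.134). Over 6 to 24 h it was 0.35 ± 0.17 (adjusted p = 0.159).

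The second Cxcl12 probe set read 169 to 449 and went the other way, by -0.37 ± 0.18 over 6 to 24 h (limma, adjusted p = 0.143). At 6 h it read 319 and 306 in TERT-on against 169 and 205 in TERT-off skin, and at 12 h 449 and 344 against 217 and 260. Both TERT-off mice were thus below both TERT-on mice at either time. Over 6 and 12 h it was lower by -0.73 ± 0.21 (adjusted p = 0.0345), while the brightest probe set gave 0.11 ± 0.21 (adjusted p = 0.739). In that comparison 22.6% of all genes passed. The log2 values of the pair correlated with r = 0.43 over 16 arrays. The remaining Cxcl12 probe set read 1.90 to 11.9 and was not tested. No direction is therefore given for Cxcl12. Dermal fibroblast markers, summed over 9 genes, were at 14309 to 22687 in TERT-on and 21948 to 33662 in TERT-off skin over 6 to 24 h, and their part in the Cxcl12 values was not tested.

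Cxcl14 was lowest at 0 h and higher at each later time in both cohorts. Its brightest probe set read 425, 999, 1166 and 728 in TERT-on mouse 1 and 444, 725, 990 and 820 in TERT-on mouse 2. It read 582, 678, 849 and 814 in TERT-off mouse 1 and 500.3, 787, 741 and 907 in TERT-off mouse 2. In every mouse the 3 later values were above the one at 0 h. The mean change from 0 h was 1.04 ± 0.14 in TERT-on skin (limma, adjusted p = 0.0137), a 2.05-fold rise, and 0.55 ± 0.14 in TERT-off skin (adjusted p = 0.108). It was the 1 of 8 tested members that passed in the TERT-on cohort, where 0.183% of all genes passed. In the TERT-off cohort none of 5 passed, against 0.501%. Unadjusted p was under 0.05 for Cxcl1 and Cxcl14, and for 17.9% of all genes. The changes differed between the cohorts by -0.48 ± 0.19 (adjusted p = 0.338). None of the 5 members passed in that comparison, in which 0.00795% of genes did and Cxcl14 had an unadjusted p under 0.05. Of all genes 14.35% had one. At 12 h the TERT-on level was 1.31 ± 0.17 above 0 h (adjusted p = 0.0189), which again 1 of 8 members passed and 0.0636% of all genes. The mean TERT-on change was 0.99 (adjusted p = 0.254) without the 0 h array of low Gapdh ratio, 0.92 (adjusted p = 0.728) without TERT-on mouse 1, and 1.04 (adjusted p = 0.0645 and 0.0626) without TERT-off mouse 1 or 2. The change at 12 h was 1.26 (adjusted p = 0.216) without that 0 h array and 1.16 to 1.46 without any 1 of the 4 mice, none of which passed (adjusted p = 0.0581 to 0.915). The second Cxcl14 probe set read 204 to 426, correlated with the first with r = 0.33, and changed in TERT-on skin by 0.01 ± 0.20 (adjusted p = 0.991), so the rise rests on 1 of its 2 probe sets.

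**Figure D4:**
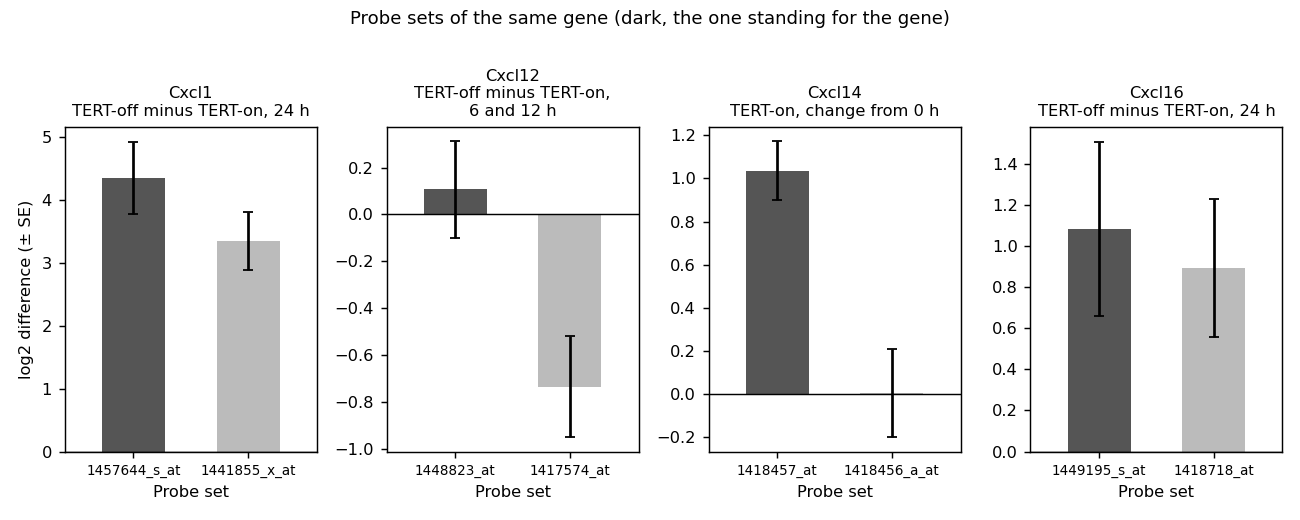
Log2 difference ± 1 SE (y axis, own range for each panel) from the tested probe sets (x axis) of Cxcl1, Cxcl12, Cxcl14 and Cxcl16 in 1 comparison each, named above the panel. The pairs of Cxcl1 and Cxcl16 lie on the same side of 0, that of Cxcl12 on opposite sides, and the second Cxcl14 probe set lies at 0.01.

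Between the cohorts no difference in Cxcl14 passed. Over 6 to 24 h the difference was -0.17 ± 0.11 on the brightest probe set (limma, adjusted p = 0.263) and -0.29 ± 0.16 on the second (adjusted p = 0.200). At 12 h both TERT-off mice (849 and 741) were below both TERT-on mice (1166 and 990), by -0.44 ± 0.17 (adjusted p = 0.136), and at 24 h the cohorts overlapped. The summed basal keratinocyte markers also overlapped between the cohorts, at 13014 to 16177 and 11042 to 16789 over 6 to 24 h.

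Cxcl16 read 94.5, 164, 344 and 123 in TERT-on mouse 1 and 73.6, 132, 142 and 116 in TERT-on mouse 2. It read 217, 254, 334 and 268 in TERT-off mouse 1 and 116, 115, 239 and 239 in TERT-off mouse 2. The TERT-on 0 h arrays were the lowest of all, and at 24 h the cohorts did not overlap. The log2 difference was 0.93 ± 0.42 at 0 h (limma, adjusted p = 0.608), 1.08 ± 0.42 at 24 h (adjusted p = 0.183) and 0.55 ± 0.26 over 6 to 24 h (adjusted p = 0.139). Its second probe set followed it (r = 0.97 over 16 arrays) and gave 0.34 ± 0.21 over 6 to 24 h (adjusted p = 0.251). Without TERT-off mouse 2 the difference over 6 to 24 h was 0.85 and passed (adjusted p = 0.0412), but it was 0.25 (adjusted p = 0.523) without TERT-off mouse 1 and 0.27 (adjusted p = 0.637) without TERT-on mouse 2. Macrophages and dendritic cells are known sources of Cxcl16. Summed over 11 macrophage and monocyte markers, the level was 4515 to 9246 in TERT-on and 8679 to 18979 in TERT-off skin over 6 to 24 h, and the part of these cells in the Cxcl16 values was not tested.

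Genes of like pattern were sought among 12292 tested genes with no empty cell, by Pearson's r of log2 intensity over the 16 arrays, for the members with the largest difference over 6 to 24 h in each direction. Closest to Cxcl1 were Socs3, an inhibitor of cytokine signalling (r = 0.94), Timp1, an inhibitor of matrix metalloproteinases (r = 0.94), and Ccl2, which draws monocytes (r = 0.94). Ccl2 read 85.7 and 46.1 in TERT-on skin at 6 h and 468 and 512 in TERT-off skin at 24 h. Timp1 read 1478 and 802 in TERT-off skin at 24 h, against 77.9 and 71.2 in TERT-on skin. Closest to Cxcl14 were Gsto1, a glutathione transferase (r = 0.87), Homer3, a scaffold protein (r = 0.87), and Stard5, a lipid transfer protein (r = 0.87). The arrays share mice and cohorts, so these values describe the 16 arrays only.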

How the data were processed

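Total RNA of whole dorsal skin biopsies was hybridised to Affymetrix mouse 430 2.0 arrays, 1 per biopsy. The deposited values are probe set intensity values, not logged. To make them, the authors scaled arrays to a common invariant set and modelled perfect-match minus mismatch signal with dChip. The table has 45101 probe sets; 1425 of its cells are empty and 5472 hold 1, the lowest value. A single symbol was given for 34958 probe sets, several for 932 and none for 9211. The 64 controls were left out.

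A floor at the 20th percentile (7.71) replaced lower values, 0.301% of those tested, before log2. Only probe sets exceeding the table median (34.4) on 2 or more arrays were tested. The probe set of highest mean stood for a gene. A single fit in limma 3.58.1 (R 4.3.3, statmod 1.5.0) covered the 16 arrays, with a mean for each of 8 groups, mice as random blocks (correlation 0.0728) and an intensity trend. Tests were two-sided, adjusted after Benjamini-Hochberg over the 25576 probe sets, with a threshold of 0.05. Probe sets without any value in a group were left out of comparisons using it. The fit was tested on simulated data. Tables and plots used Python with pandas and matplotlib.

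The genes, lists and tests were chosen with earlier results of these data known. Every member was named, every CXC receptor and ligand, up to 4 genes of other lists with the largest difference over 6 to 24 h past the threshold, and the 3 genes most correlated with 2 members. Floor, filter, scaling, block, trend, probe set averaging and leaving out mice were varied. With 2 mice in a cohort and serial biopsies of each, p-values rest on few animals, and the number of arrays limits the precision. The methods name SAM for the study's own calls, which was not used here.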

Additional observations from a re-analysis of the deposited data

Results flagged for a closer look

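The difference between the cohorts in Cxcl1 changed by 5.84 ± 0.78 on the log2 scale between 6 and 24 h (limma interaction, adjusted p = 0.0172). At 6 h the fitted difference, TERT-off minus TERT-on, was -1.50, and at 24 h it was 4.34. It stood out because the cohort effect at these times differed by a test of the difference itself, which was added after the values had been seen. The call was lost without the filter on low values, and when any single mouse was left out. From 6 to 24 h the TERT-off mice went from 55.3 to 352 and from 20.9 to 581, while the TERT-on mice went from 184 to 24.2 and from 50.1 to 20.6. The second Cxcl1 probe set gave 4.10 ± 0.63 (adjusted p = 0.0341). With 2 arrays in a group, no test for single outlying arrays was made.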

How the results depend on the processing

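Of the 5 members tested over 6 to 24 h, 1 passed (Cxcl1), and 9 of 16 alternatives kept that count. It was 0 without the filter on low values (Cxcl1 at 1.22, adjusted p = 0.0707) and 0 with means per mouse (adjusted p = 0.0532). With the replicate block, which takes the mouse number as a pair across cohorts, it was 2, Cxcl1 and Cxcl16 (0.55, adjusted p = 0.0272). Arrays of the same number did not deviate together between cohorts (r = -0.12 to 0.11 at the 4 times), so the numbers were not taken as pairs across cohorts. The replicate block changed no other count of members. Between times, arrays of the same number gave r = -0.15 to 0.33 in TERT-on and 0.14 to 0.65 in TERT-off skin. That a number names the same mouse at all times is therefore an assumption, which the TERT-on values do not settle. Leaving out 1 mouse at a time gave 0 to 2 members over 6 to 24 h, 0 to 1 at 0 h and at 12 h (Cxcl3), 0 to 1 at 24 h, 0 to 1 for the change from 0 h in TERT-on skin and 0 for the growth of the difference from 6 to 24 h. That growth also gave 0 members without the filter on low values (Cxcl1, adjusted p = 0.0622), and the rise of Cxcl1 from 0 to 24 h in TERT-off skin did not pass there (3.87, adjusted p = 0.0577). The change in TERT-on skin gave 0 members without the 0 h array of low Gapdh ratio, and 0 with the mean of the probe sets of a gene (Cxcl14 at 0.52, adjusted p = 0.122; at 12 h 0.76, adjusted p = 0.125). The counts at 6 h, over 6 and 12 h, for the change in TERT-off skin, for the difference between the changes and from 6 to 12 h stayed at 0 under every alternative run. The sign of Cxcl9 over 6 to 24 h turned with arrays centred on their medians (-0.0078), with quantile normalization (-0.0015), and without TERT-on mouse 2 (-0.54) or TERT-off mouse 2 (-0.07), leaving out 1 mouse at a time giving -0.54 to 0.65, and that of Cxcl12 turned with the mean of its probe sets (-0.014). Cxcl14 stayed at -0.26 to -0.08 and Cxcl1 at 0.74 to 1.71 over the same times. Cxcl9 was not tested under the stricter filter, and neither were Cxcl2, Cxcl3 and Cxcl5. Where a lone mouse is left in a cohort, it is assumed to vary like the other groups, and the cause of the other changes was not tested. Readings near the floor, as for Cxcl5 and Cxcr2, limit their folds.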

Other observations

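Some empty cells had a high reading of the same gene beside them. Of 651 empty cells whose gene had another probe set without empty cells, that probe set was at its highest of the 16 arrays on the array concerned in 77 (11.8%). Among the 114 such cells on the TERT-off 24 h arrays it was so in 27 (23.7%). This was not compared with cells that held a value, no cause was tested, and the levels of Cxcl2, Cxcl3 and Cxcl5 at that time are not known from this table.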
